A study of Homo sapiens with 12 samples.

Results

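The proteasome genes described here are the 48 of 60707 genes in the count table whose symbols consist of PSMA, PSMB, PSMC, PSMD, PSME, PSMF or PSMG and a number, with pseudogenes left out. They comprise 8 genes of the alpha ring, 7 of the constitutive beta ring, 4 for the catalytic subunits of the immunoproteasome and thymoproteasome, 6 ATPases and 11 non-ATPases of the regulatory cap, 3 assembly chaperones of the cap, 4 assembly chaperones of the core, and 5 activators or inhibitors. Of the 48 genes, 46 passed the filter on low counts, and the lowest group mean among these was that of PSMB10, at 4.198 CPM, the count scaled to library size. The other 2 were PSMA8, the testis form of an alpha subunit, with at most 8 counts in a library, and PSMB11, the thymus form of a catalytic subunit, with at most 1.

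RNA was sequenced from Raji, a human Burkitt lymphoma B-cell line, 24 h into treatment with FX1, which blocks BCL6, a transcriptional repressor of germinal-centre B cells, or with DMSO, the solvent. The study placed this treatment on top of SMARCA4 protein degradation by an auxin-inducible degron, which removes a tagged protein and leaves its gene in place. The 4 groups were GFP-low cells with FX1, GFP-low cells with DMSO, GFP-high cells with FX1 and GFP-high cells with DMSO, with 3 libraries in each. All 12 libraries carry the genotype label Smarca4+/+, and the titles call the DMSO libraries untreated. The labels do not say how the GFP gates relate to the amount of SMARCA4 protein, so the gates are named here only by their GFP level. RNA counts do not check the depletion of a protein. Whether the 3 libraries of each group are separate cultures is not stated, and the p-values then rest on a spread that may be technical.

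The proteasome is the main protease of the nucleus and cytosol for proteins tagged with ubiquitin. Its barrel-shaped core holds outer alpha rings that gate entry and inner beta rings that carry the protease sites, and the regulatory cap binds ubiquitin, unfolds the substrate and feeds it into the core. In B cells and other immune cells, and after interferon exposure, the catalytic subunits PSMB8, PSMB9 and PSMB10 can take the places of PSMB5, PSMB6 and PSMB7, and this immunoproteasome produces peptides suited to presentation on MHC class I molecules. The transcription factors NFE2L1 and NFE2L2 raise many proteasome genes together from antioxidant response elements, and interferon-activated factors raise the immunoproteasome genes and the activators PSME1 and PSME2.

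The libraries held between 20454028 and 42556661 counts. Variance between libraries of 1 group was 1.67 to 1.94 times that expected from sampling alone, so the libraries differed beyond sampling noise. All 6 B-cell markers were present, and their levels summed to 1788 to 1794 CPM in the FX1 libraries of the GFP-low gate, against 2357 to 2374.5 CPM in its DMSO libraries, and to 2209 to 2228 CPM in the FX1 libraries of the GFP-high gate, against 2650.3 to 2667 CPM in its DMSO libraries. The sums were 2.52 to 7.51 CPM for 6 T- and NK-cell markers, 8.79 to 17.8 CPM for 6 epithelial and stromal markers with KRT18 at 0 throughout, and 2.00 to 6.39 CPM for 6 myeloid markers with S100A8 at 0 throughout. These sums differed between the groups, and their part in the results was not tested. In bulk RNA, fewer cells of a kind and less RNA per cell cannot be told apart.

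Promoters of 4 genes are shown because these genes carry the main results: PSMC4 and PSMB10 had the largest FX1 rises in GFP-low and GFP-high cells, and the neighbouring activator genes PSME1 and PSME2 moved in opposite directions with FX1. Each sequence is from RefSeq (GRCh38.p14), written 5′ to 3′ on the strand of the gene, and runs from 250 bases before the first transcribed base to 50 bases from that base on, which need not be the end of the gene's record in the count table. Capitals mark the match to TGACNNNGC, the core of the antioxidant response element, in PSMC4, and to GAAANNGAA, the core of the interferon-stimulated response element, in the other 3. The stretches are chr19:39970915-39971214 on the plus strand for PSMC4, chr16:67936801-67937100 on the minus strand for PSMB10, chr14:24135944-24136243 on the plus strand for PSME1 and chr14:24146561-24146860 on the minus strand for PSME2.
PSMC4: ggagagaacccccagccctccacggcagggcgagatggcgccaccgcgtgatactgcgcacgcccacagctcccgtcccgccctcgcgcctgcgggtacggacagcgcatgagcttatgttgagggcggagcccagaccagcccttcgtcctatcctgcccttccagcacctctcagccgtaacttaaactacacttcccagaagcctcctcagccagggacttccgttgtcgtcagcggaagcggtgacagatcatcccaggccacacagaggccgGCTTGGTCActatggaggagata
PSMB10: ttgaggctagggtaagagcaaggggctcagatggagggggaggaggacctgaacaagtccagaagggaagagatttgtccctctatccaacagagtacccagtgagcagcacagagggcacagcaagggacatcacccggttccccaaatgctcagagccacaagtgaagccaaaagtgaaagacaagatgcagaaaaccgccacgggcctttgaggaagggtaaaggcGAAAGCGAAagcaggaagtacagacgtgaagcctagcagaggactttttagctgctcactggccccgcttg
PSME1: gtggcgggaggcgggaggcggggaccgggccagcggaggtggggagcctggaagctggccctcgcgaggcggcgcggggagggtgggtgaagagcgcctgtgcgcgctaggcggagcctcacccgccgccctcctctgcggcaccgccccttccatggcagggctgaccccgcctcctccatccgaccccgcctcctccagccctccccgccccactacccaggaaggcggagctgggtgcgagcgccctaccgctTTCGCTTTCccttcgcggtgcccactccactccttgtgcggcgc
PSME2: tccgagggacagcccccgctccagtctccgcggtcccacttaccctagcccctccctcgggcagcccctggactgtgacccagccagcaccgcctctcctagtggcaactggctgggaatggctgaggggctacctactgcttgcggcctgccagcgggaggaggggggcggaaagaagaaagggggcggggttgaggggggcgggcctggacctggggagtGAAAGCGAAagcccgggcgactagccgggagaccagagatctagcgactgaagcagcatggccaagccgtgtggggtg

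With the first transcribed base as position 0, GAAAGCGAA stood at -21 to -13 in PSMB10 and at -28 to -20 in PSME2. The same letters stood on the opposite strand in PSME1, as TTCGCTTTC at 6 to 14, and the match in PSMC4 was likewise on the opposite strand, at 27 to 35. TGACNNNGC also matched in PSME1 at -86 to -78 and in PSME2 at -175 to -167, both left in small letters above. A promoter was found for 42 of the 48 genes, and PSMA7, PSMB1, PSMB6, PSMB7, PSMD4 and PSMG3 had none in the table. TGACNNNGC, searched on both strands, was present in 13 of the 42 promoters (31%), against 13.6% of all 27305 RefSeq promoters of 300 bases and 15.6% of the 10551 belonging to genes tested here. GAAANNGAA was present in 7 (16.7%, against 8.29% of all promoters), CCAAT, the site of the NF-Y complex, in 19 (45.2%, against 35.7%), and CCGGAAG, the site type of ETS factors, in 13 (31%, against 10.7%). Among promoters of genes tested here the shares were 6.89% for GAAANNGAA, 37.7% for CCAAT and 19.7% for CCGGAAG. TTCNNNGAA, the site type of STAT factors, was present in 5 of the 42 (11.9%). Its share was 7.88% of all promoters and 6.52% of those of genes tested here. In PSMC4 it matched at -55 to -47, left in small letters above. In PSMD14 a CCAAT on each strand overlapped the other. GAAAGCGAA also occurred at -33 to -25 in PSMG4, which codes for a core assembly chaperone. These matches describe the letters in the window and are no measure of binding.

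Per kilobase of the length deposited for each gene, the levels of the subunits spread widely. Among the 14 constitutive core genes, PSMA2 was lowest in each group, at 1.61 CPM per kilobase in GFP-low cells with FX1 and 2.49 with DMSO, and at 1.73 in GFP-high cells with FX1 and 2.24 with DMSO. The highest was PSMA7 in 3 groups, at 94.8 CPM per kilobase in GFP-low cells with FX1 and 73.0 with DMSO, and at 94.99 in GFP-high cells with FX1, and PSMB1 in GFP-high DMSO cells, at 71.5. The 7 beta-ring genes lay closer together, within 2.32-fold in GFP-low FX1 cells and 2.64-fold in GFP-high DMSO cells. PSMC1 was the lowest of the 17 cap genes in each group, and PSMD2, a scaffold of the cap, was the highest. The length is the one deposited with the counts for each gene and covers the exons of its whole record, not those of 1 transcript. It was 8378 bases for PSMA2, 6129 for PSMC1 and 8773 for PSMD9, against 1168 for PSMB3. The order of the levels therefore depends on how many exon bases each record holds.

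**Figure D1:**
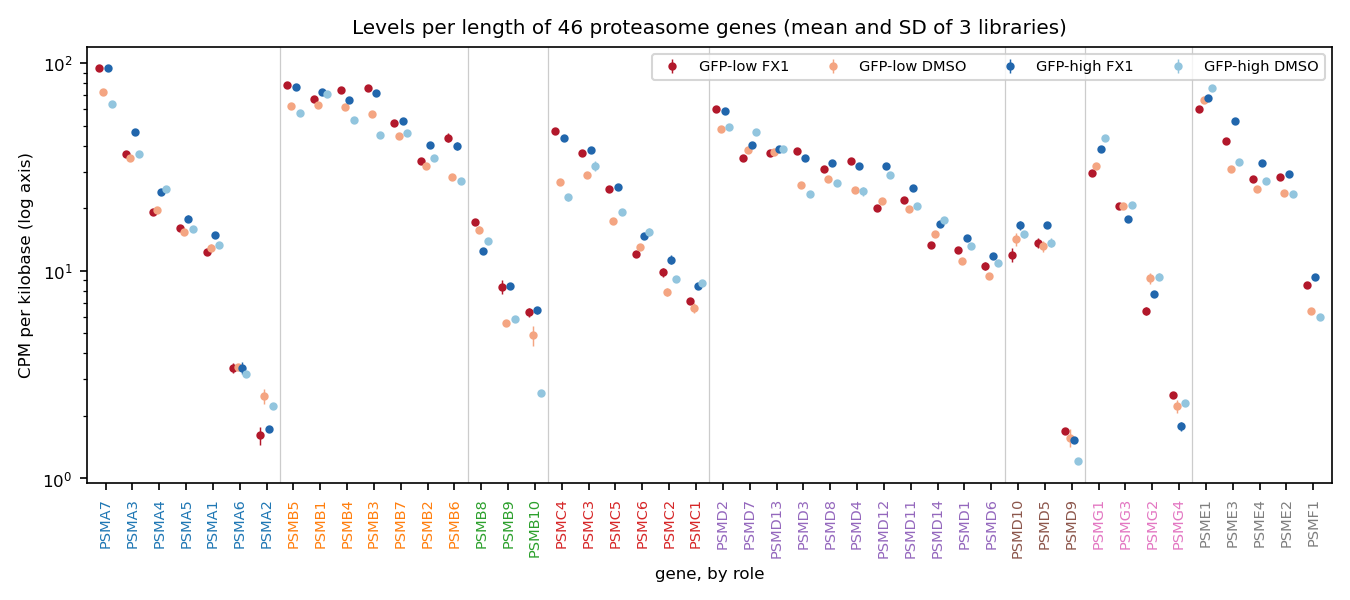
Levels of the 46 tested proteasome genes on a log axis of CPM per kilobase, ordered by role and then by mean level. Points are means of 3 libraries and bars are SDs, with GFP-low FX1 in dark red, GFP-low DMSO in orange, GFP-high FX1 in dark blue and GFP-high DMSO in light blue. PSMA2 is lowest of the alpha ring (1.61 to 2.49), and PSMD9 (1.22 to 1.70) lies far below the other 2 cap chaperones.

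The first question was how proteasome genes respond to FX1 in each gate. In GFP-low cells 39 of the 46 genes were called (68.0% of all 17859 genes tested were), and in GFP-high cells 42 were (68.4%). In GFP-low cells FX1 raised 30 of the 46 genes (33.7% of all genes rose) and lowered 9 (34.3% of all genes fell), and 7 did not pass the test. In GFP-high cells it raised 31 (33.8% of all genes) and lowered 11 (34.6%), and 4 did not pass. A call here is an adjusted p below 0.05 in edgeR's quasi-likelihood test, adjusted by Benjamini-Hochberg over the 17859 genes tested, and errors on log2 changes are standard errors (SE) throughout. The median log2 change of the 46 genes was 0.14 in GFP-low and 0.22 in GFP-high cells, against -0.01 and -0.01 for all genes.

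The changes were small in size. Only 3 of the 46 genes in GFP-low cells and 6 in GFP-high cells were called with a change of at least 1.5-fold, against 31.4% and 31.9% of all genes tested. Among protein-coding genes alone, 41.1% rose and 37.4% fell with FX1 in GFP-low cells, and 41.4% rose and 35.4% fell in GFP-high cells. The FX1 and DMSO libraries did not overlap for 39 of the 46 genes in GFP-low cells (69.6% of all genes) and for 41 in GFP-high cells (70.2%). The summed level of all 48 genes was 4681 ± 7.83 CPM in GFP-low FX1, against 4110.0 ± 10.3 in GFP-low DMSO libraries, and 5120.2 ± 10.5 CPM in GFP-high FX1, against 4368 ± 13.3 in GFP-high DMSO libraries (SD, n = 3 each). As a share of all counts this was 0.497% and 0.419% in GFP-low cells with FX1 and with DMSO, and 0.508% and 0.405% in GFP-high cells with FX1 and with DMSO.

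Across both gates, 26 genes rose with FX1 in each, and PSMA2, PSMC6, PSMD7, PSMD14, PSME1, PSMG1 and PSMG2 fell in each. The share of all genes that moved the same way in both gates was not computed, so these joint counts have no background. PSMB8, PSMD10, PSMD12 and PSMG4 were called in opposite directions, PSMB1 and PSMC1 were called in GFP-low cells alone, 5 were called in GFP-high cells alone, and PSMA6 and PSMD13 were called in neither. An alternative fit removed from each library its trend of counts on transcript GC content and length (GC and length correction). In that fit 32 rose and 4 fell in GFP-low cells, and 36 rose and 6 fell in GFP-high cells. The median change of all genes moved up as well, from -0.00558 to 0.0496 in GFP-low and from -0.00862 to 0.0617 in GFP-high cells. The shares of all genes called in that fit are not given here, so its counts have no background beside them. With this correction the calls of PSMC6 and PSMD14 in GFP-low cells, and of PSMC6 in GFP-high cells, turned to a rise, and PSMD7 and PSMG1 were no longer called in either gate.

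**Figure D2:**
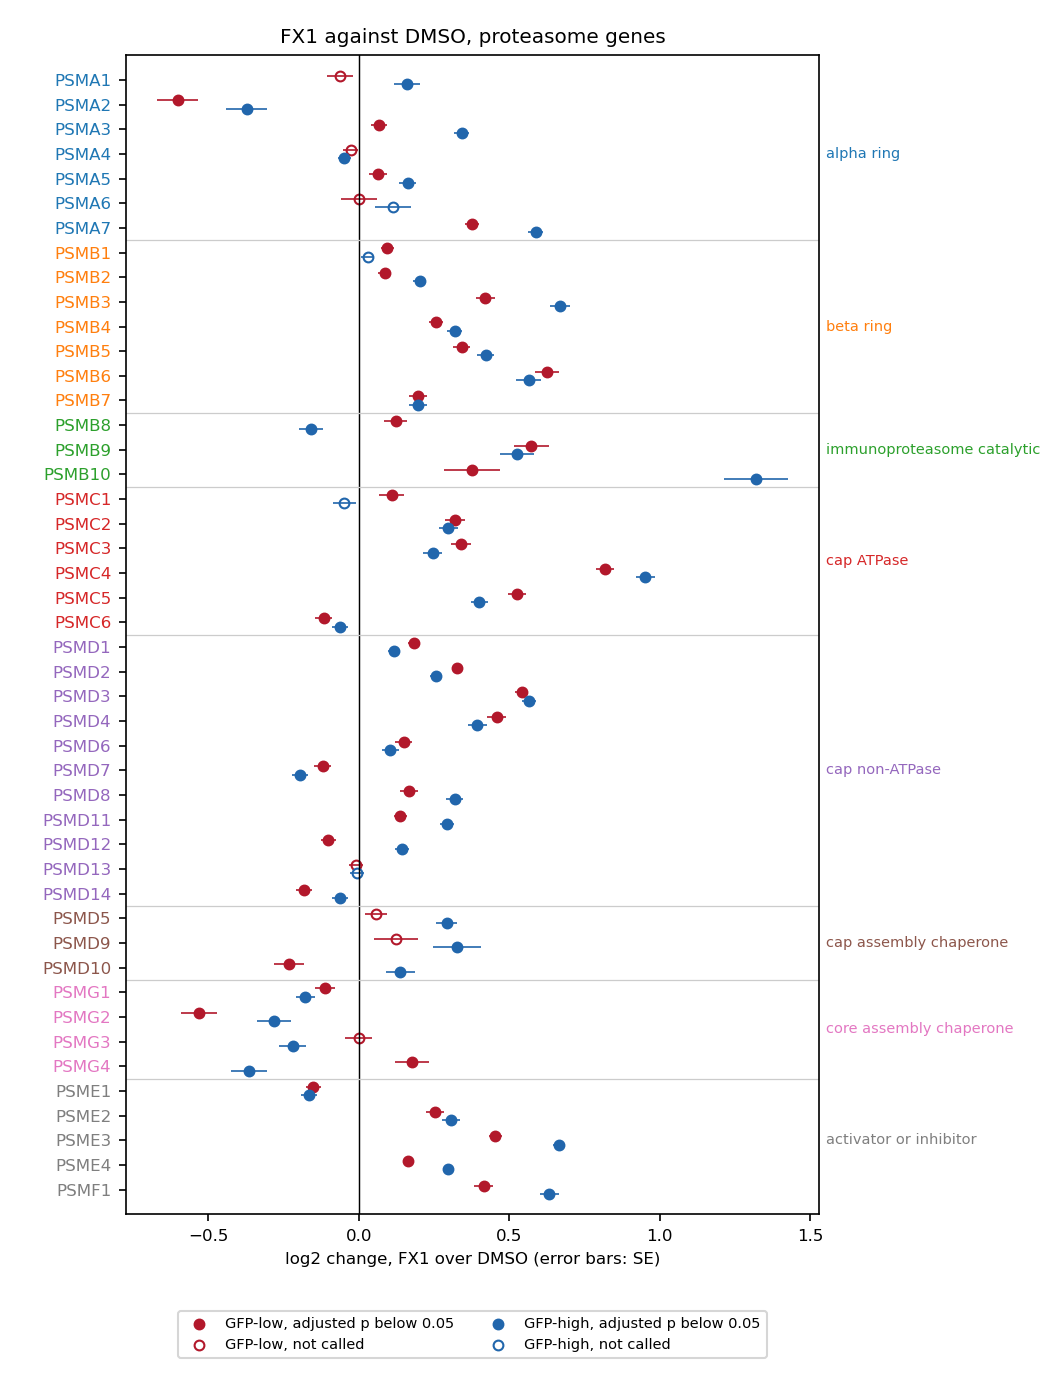
Log2 change with FX1 over DMSO for the 46 tested proteasome genes, grouped by role, with GFP-low cells in red and GFP-high cells in blue. Points are edgeR estimates from 3 libraries a group, bars are standard errors, and filled points have an adjusted p below 0.05. Most beta-ring and cap genes lie to the right of 0, the 4 core assembly chaperones lie mostly to its left, and PSMB10 in GFP-high cells (1.32) lies farthest out.

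The second question was how the GFP-low gate differs from the GFP-high gate under each treatment. The gates differed by a called amount for 34 of the 46 genes under FX1 (56.9% of all genes tested) and for 29 with DMSO (46.1%). Under FX1, 9 of the 46 genes were higher in GFP-low than in GFP-high cells (30.2% of all genes tested were) and 25 were lower (26.7%), with 12 not called. With DMSO, 10 were higher (21.7% of all genes) and 19 lower (24.4%), with 17 not called. The median log2 difference was -0.10 under FX1 and -0.05 with DMSO, against 0.08 and 0.03 for all genes tested. Among protein-coding genes alone, 33.6% were higher and 37.0% lower in GFP-low cells under FX1, and 25.4% were higher and 33.0% lower with DMSO. The gates did not overlap for 36 of the 46 genes under FX1 (61.1% of all genes) and for 36 with DMSO (51.6%).

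PSMB3, PSMB4, PSMB8, PSMC4 and PSMD3 were higher in GFP-low cells under both treatments, 17 genes were lower under both, and PSMF1 was called in opposite directions. For these joint counts, too, the share over all genes was not computed. A change of at least 1.5-fold was called for 1 gene under each treatment, PSMD12 under FX1 and PSMB10 with DMSO, against 15.2% and 7.74% of all genes. These 2 comparisons and the FX1 comparisons above share libraries, so their values are set side by side below and not as independent observations. GC and length correction put the median of all genes under FX1 at -0.0237 in place of 0.0787, and the median of the 46 genes relative to it at -0.14 in place of -0.18. It reversed the sign of 13 of the 46 differences under FX1, among them the rises of PSMB3, PSMC4, PSMD3 and PSMG3.

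The third question was whether the FX1 change itself differed between the gates. The difference, the FX1 change in GFP-low minus that in GFP-high cells, was called for 23 genes (31.3% of all genes tested), positive for 6 (14.8% of all genes tested) and negative for 17 (16.5%). Among protein-coding genes alone it was positive for 18.3% and negative for 22.6%, and 1 of the 46 genes, PSMB10, was called with at least 1.5-fold (5.64% of all genes). The median was -0.06, against 0.02 for all genes. The signed log2 change with FX1 was lower in GFP-low than in GFP-high cells for 27 of the 46 genes, some of which fell further in GFP-low cells, PSMA2 and PSMG2 among them. The share of all genes with a lower signed change in GFP-low cells was not computed, so this count has no background. The largest differences were those of PSMB10 and PSMG4, described below. The positive count was 3 with DESeq2, and 3, 2 and 3 without replicate 1, 2 or 3 of GFP-high DMSO. Without these libraries the median difference of all genes also moved, to -0.0278, -0.0266 and -0.0254, in place of 0.024. The part of scaling between libraries in these counts was not tested.

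**Figure D3:**
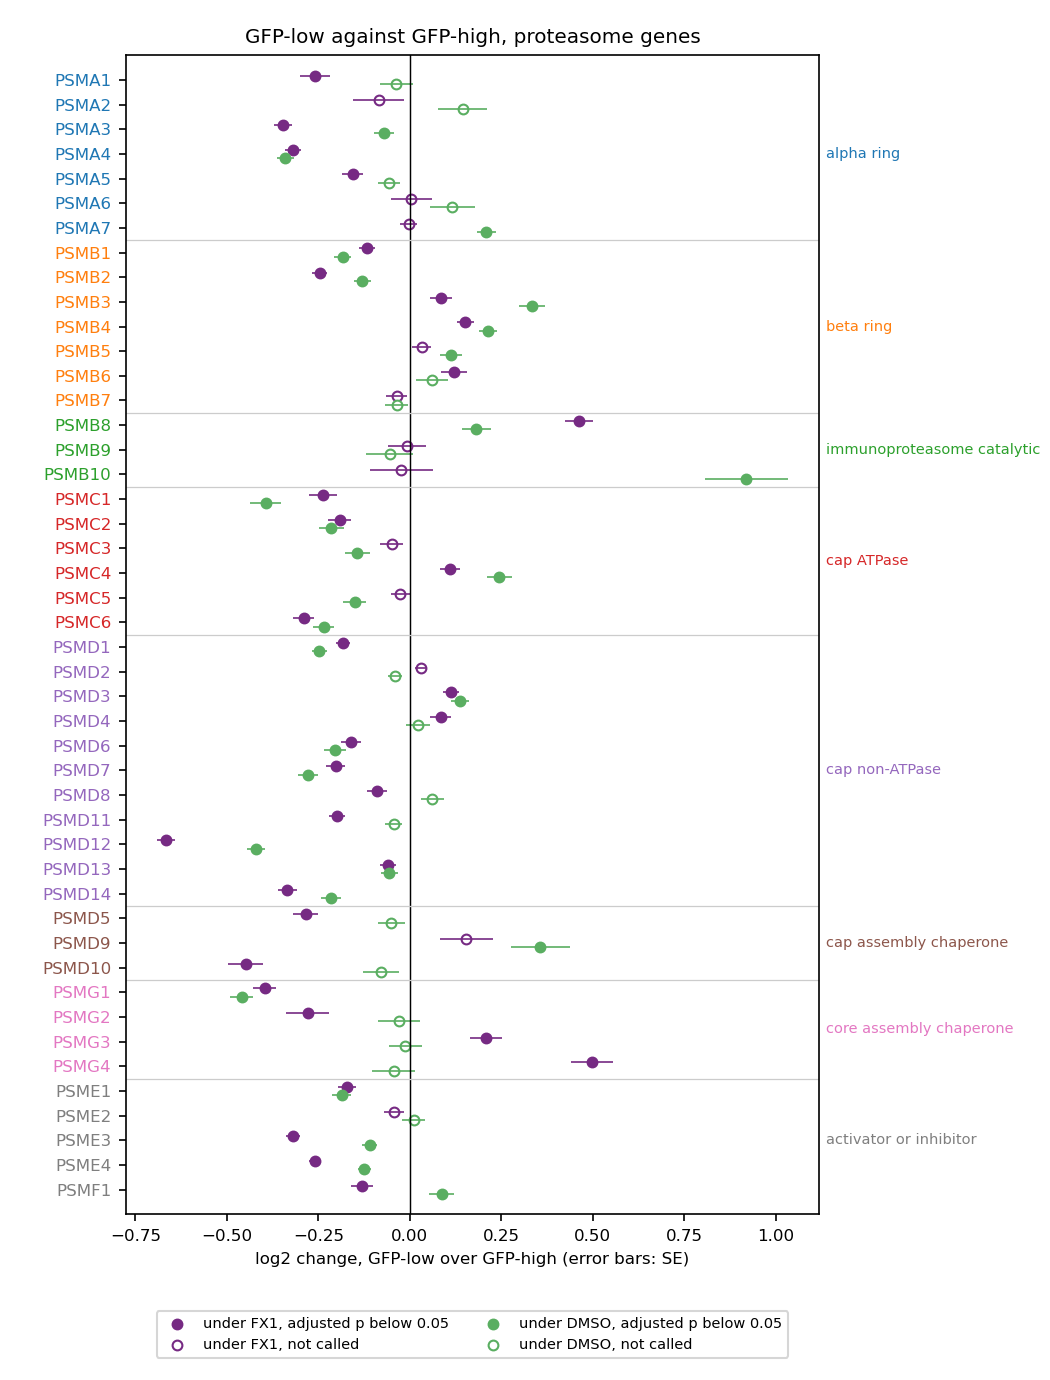
Log2 difference of GFP-low over GFP-high cells for the same 46 genes, under FX1 in purple and with DMSO in green. Points are edgeR estimates from 3 libraries a group, bars are standard errors, and filled points have an adjusted p below 0.05. PSMB10 with DMSO (0.92) lies farthest to the right and PSMD12 under FX1 (-0.67) farthest to the left.

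The constitutive catalytic subunits all rose with FX1 in both gates. PSMB5, which carries the chymotrypsin-like site, had 123.1, 122.99 and 120.4 CPM in GFP-low FX1, against 93.2, 98.3 and 98.0 in GFP-low DMSO libraries, and 119.5, 118 and 121 CPM in GFP-high FX1, against 86.7, 89.97 and 90.9 in GFP-high DMSO libraries. PSMB6, which carries the caspase-like site, had 60.2, 63.7 and 66.5 CPM in GFP-low FX1, against 41.0, 40.4 and 41.3 in GFP-low DMSO libraries, and 60.5, 58.3 and 55.1 CPM in GFP-high FX1, against 39.4, 40.4 and 37.6 in GFP-high DMSO libraries. PSMB7, which carries the trypsin-like site, had 92.5, 90.1 and 92.9 CPM in GFP-low FX1, against 80.7, 81.2 and 78.1 in GFP-low DMSO libraries, and 94.7, 93.7 and 94.0 CPM in GFP-high FX1, against 83.1, 81.3 and 82.1 in GFP-high DMSO libraries. For each of the 3 genes every FX1 library was above every DMSO library of its gate. The log2 change was 0.34 ± 0.027 (SE) in GFP-low and 0.42 ± 0.028 in GFP-high cells for PSMB5, 0.62 ± 0.040 and 0.56 ± 0.041 for PSMB6, and 0.20 ± 0.030 and 0.20 ± 0.030 for PSMB7. The highest adjusted p of these 6 tests was 7.8e-10, for PSMB7 in GFP-high cells, by edgeR's quasi-likelihood test with Benjamini-Hochberg adjustment. The difference between gates was not called for any of them, at 0.06 ± 0.057 for PSMB6, for instance, but after GC and length correction that of PSMB5 was -0.19 and called.

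The rest of the beta ring, whose members shape the barrel without a protease site, rose as well, with 1 exception. All 7 beta-ring genes were called higher with FX1 in GFP-low cells and 6 in GFP-high cells, where PSMB1 stood at 0.03 ± 0.022 (adjusted p = 0.24 by edgeR) and, after GC and length correction, at 0.23 and called. For this and the role counts that follow, the shares over all genes were 33.7% higher and 34.3% lower in GFP-low cells. They were 33.8% and 34.6% in GFP-high cells, and no role count was set apart from them by a test. PSMB3 had 89.3, 88.8 and 87.7 CPM in GFP-low FX1, against 65.9, 67.6 and 65.2 in GFP-low DMSO libraries, and 83.3, 86.0 and 81.9 CPM in GFP-high FX1, against 52.9, 50.9 and 54.3 in GFP-high DMSO libraries. The treatments did not overlap in either gate, and the GFP-high DMSO libraries were lowest. PSMB3 changed by 0.42 ± 0.032 in GFP-low and 0.67 ± 0.034 in GFP-high cells, and the difference of -0.25 ± 0.047 was called (adjusted p = 2.2e-06, edgeR). Between gates it was higher in GFP-low cells by 0.33 ± 0.036 with DMSO (adjusted p = 7.9e-17) and by 0.08 ± 0.030 under FX1 (adjusted p = 0.011, edgeR), and the second of these turned to -0.19 after GC and length correction.

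In the alpha ring FX1 raised 3 of the 7 tested genes in GFP-low cells (33.7% of all genes rose) and 4 in GFP-high cells (33.8%). It lowered 1 in GFP-low (34.3% of all genes fell) and 2 in GFP-high cells (34.6%). PSMA7 rose most, at 166 ± 2.20 CPM in GFP-low FX1, against 128 ± 2.96 in GFP-low DMSO libraries, and 166 ± 0.658 CPM in GFP-high FX1, against 111 ± 3.54 in GFP-high DMSO libraries (SD, n = 3 each). PSMA2 had 14.3, 14.3 and 11.98 CPM in GFP-low FX1, against 19.9, 19.95 and 22.8 in GFP-low DMSO libraries, and 14.7, 14.4 and 14.5 CPM in GFP-high FX1, against 18.4, 19.3 and 18.6 in GFP-high DMSO libraries. All 6 FX1 libraries lay below all 6 DMSO libraries. PSMA2 changed by -0.60 ± 0.067 in GFP-low (adjusted p = 4.8e-16) and -0.37 ± 0.068 in GFP-high cells (adjusted p = 2.9e-07, edgeR). These were the largest falls among the 46 genes before GC and length correction, that in GFP-high cells by a small margin over PSMG4 (-0.37). After it PSMA2 was at -0.42 and -0.27, and PSMG2 in GFP-low cells (-0.53) and PSMG4 in GFP-high cells (-0.38) fell further. Its record shares 17.2% of its exon bases with a protein-coding record on the same strand (ENSG00000256646).

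PSMA3 had 114, 112 and 114 CPM in GFP-low FX1, against 107, 109 and 108 in GFP-low DMSO libraries, and 142, 148 and 142 CPM in GFP-high FX1, against 116, 111 and 114 in GFP-high DMSO libraries. The GFP-high FX1 libraries stood above all the others. The FX1 change was 0.07 ± 0.026 in GFP-low and 0.34 ± 0.025 in GFP-high cells, with a called difference of -0.27 ± 0.036 (adjusted p = 1.7e-11, edgeR). After GC and length correction the changes were 0.48 and 0.56, and the difference was -0.08 and no longer called. PSMA1 and PSMA7 also had called differences, of -0.22 ± 0.062 and -0.21 ± 0.034, which were -0.27 and -0.36 after the correction and still called. PSMA6 was called in no comparison before GC and length correction. After it PSMA6 was called higher in both FX1 comparisons (0.24 in GFP-low and 0.19 in GFP-high cells) and in GFP-low cells under both treatments (0.25 under FX1 and 0.20 with DMSO).

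The 3 immunoproteasome subunits did not move together. PSMB9 (hg38 chr6:32844136-32859851, plus strand) had 29.03, 25.4 and 29.7 CPM in GFP-low FX1, against 19.1, 18.9 and 18.3 in GFP-low DMSO libraries, and 27.8, 27.7 and 29.002 CPM in GFP-high FX1, against 18.8, 19.8 and 20.1 in GFP-high DMSO libraries. All 6 FX1 libraries were above all 6 DMSO libraries, and the gates overlapped under either treatment. It rose by 0.57 ± 0.058 in GFP-low (adjusted p = 5e-19) and 0.53 ± 0.058 in GFP-high cells (adjusted p = 1.5e-16, edgeR), and neither the gates nor the FX1 changes differed by a called amount.

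PSMB10 (hg38 chr16:67934506-67936864, minus strand) was set apart by 1 group. It had 10.1, 10.9 and 9.96 CPM in GFP-low FX1, against 7.01, 8.06 and 8.77 in GFP-low DMSO libraries, and 10.2, 10.9 and 10.4 CPM in GFP-high FX1, against 4.15, 4.07 and 4.38 in GFP-high DMSO libraries. The GFP-high DMSO libraries were the lowest, the GFP-low DMSO libraries lay between, and the FX1 libraries of the 2 gates overlapped. FX1 raised PSMB10 by 0.38 ± 0.092 in GFP-low cells (adjusted p = 0.00012) and by 1.32 ± 0.105 in GFP-high cells (2.50-fold, adjusted p = 2e-27, edgeR). The difference of GFP-low from GFP-high cells was -0.02 ± 0.086 under FX1 (adjusted p = 0.84) and 0.92 ± 0.112 with DMSO (adjusted p = 1.5e-13, edgeR). The FX1 change differed between gates by -0.94 ± 0.142 (adjusted p = 2.7e-09, edgeR).

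PSMB10 was also the least counted of the tested genes, with 3028 counts over all 12 libraries, and 39.4% of its exon bases lie within a protein-coding record on the same strand (ENSG00000261884, 2132 counts), so reads there may not have been assigned to it. That record changed by 0.52 ± 0.110 in GFP-low (adjusted p = 1.1e-05) and 0.11 ± 0.117 in GFP-high cells (adjusted p = 0.40, edgeR), a different order from that of PSMB10. After GC and length correction PSMB10 changed by 0.19 in GFP-low cells, which was not called, and by 1.33 in GFP-high cells, and its gate difference under FX1 was -0.43 and called.

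PSMB8 (hg38 chr6:32840717-32844679, minus strand) moved in opposite directions in the gates. It had 60.6, 58.0 and 61.1 CPM in GFP-low FX1, against 55.2, 56.8 and 52.7 in GFP-low DMSO libraries, and 44.0, 42.5 and 43.8 CPM in GFP-high FX1, against 46.5, 48.8 and 50.05 in GFP-high DMSO libraries. Every GFP-low library was above every GFP-high library, and within each gate the treatments did not overlap. The change with FX1 was 0.12 ± 0.037 in GFP-low cells (adjusted p = 0.0021) and -0.16 ± 0.040 in GFP-high cells (adjusted p = 0.00023, edgeR), with a difference of 0.28 ± 0.055 (adjusted p = 5.5e-06, edgeR). PSMB8 was higher in GFP-low than in GFP-high cells by 0.46 ± 0.038 under FX1 (adjusted p = 3.6e-26) and by 0.18 ± 0.040 with DMSO (adjusted p = 3.3e-05, edgeR). After GC and length correction the gate difference was 0.25 under FX1 and 0.09, not called, with DMSO. The rise in GFP-low cells was not called after GC and length correction (0.05), nor without any 1 of the GFP-high DMSO libraries (0.08 in each case). Those libraries are not among the ones compared for this rise. Without 1 of them the median FX1 change of all genes in GFP-low cells was -0.0484, -0.0483 or -0.0485, in place of -0.00558.

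PSMB8 and PSMB9 are head-to-head neighbours whose records overlap by 544 bases, 139 of them in exons of both, and 17.3% of the exon bases of PSMB8 lie opposite the long non-coding PSMB8-AS1. The strand setting of the counting is not given in the sources used here, so reads from such overlaps cannot be assigned to 1 gene with certainty. PSMB8-AS1 fell with FX1 in both gates, by -0.50 ± 0.111 in GFP-low (adjusted p = 2.4e-05) and -0.45 ± 0.105 in GFP-high cells (adjusted p = 5.6e-05, edgeR).

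**Figure D4:**
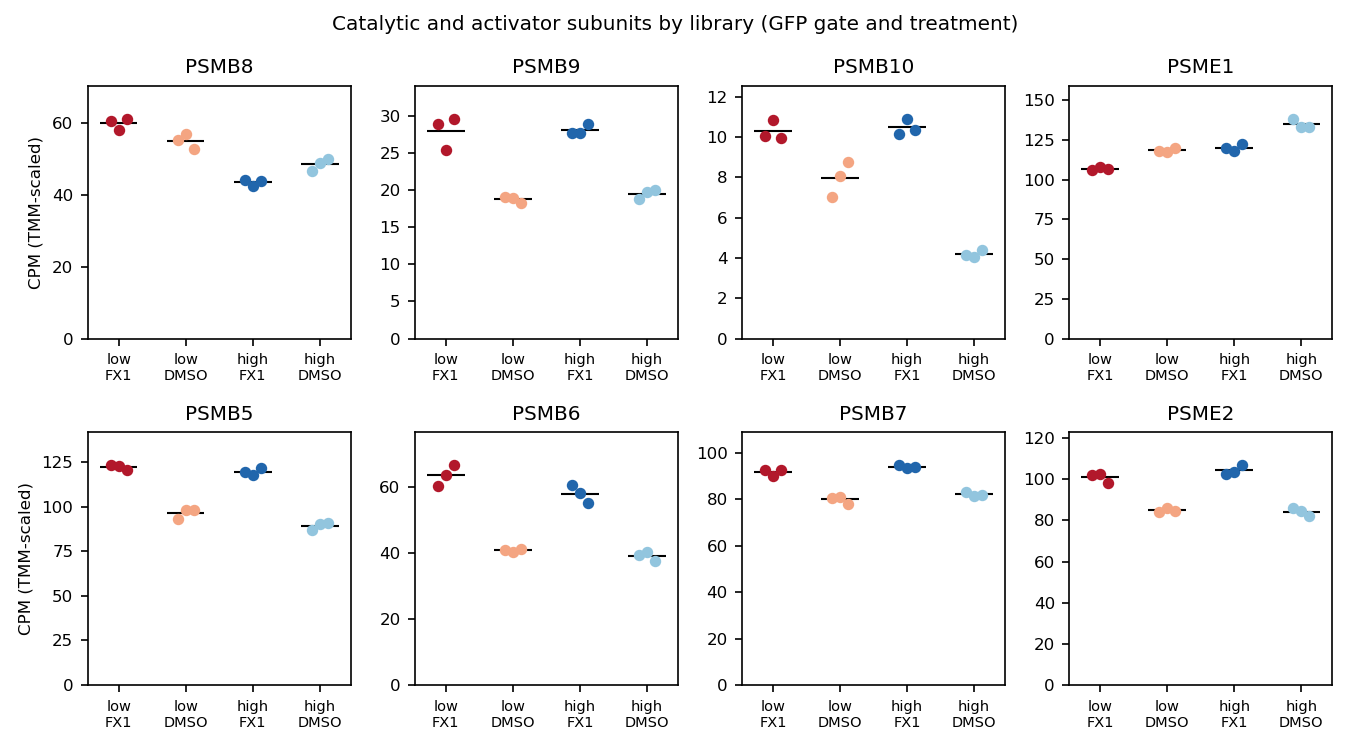
Level in TMM-scaled CPM of the 3 immunoproteasome subunits and PSME1 (top) and of their constitutive counterparts and PSME2 (bottom), by group. Each point is a library and each line the mean of 3 libraries, and all axes start at 0. PSMB9, PSMB5, PSMB6, PSMB7 and PSME2 are higher with FX1 in both gates, PSMB10 is lowest in GFP-high DMSO cells (4.198 CPM), and PSME1 is lower with FX1 in both gates.

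Set against the constitutive subunit that each replaces, in counts per kilobase within a library, the 3 pairs differed. The size of a ratio depends on the deposited record lengths, such as 3480 bases for PSMB8 and 1549 for PSMB5. Its log2 change between groups does not. The ratio of PSMB8 to PSMB5 was 0.219, 0.210 and 0.226 in GFP-low FX1, against 0.264, 0.257 and 0.240 in GFP-low DMSO libraries, and 0.164, 0.161 and 0.161 in GFP-high FX1, against 0.239, 0.242 and 0.245 in GFP-high DMSO libraries. The FX1 libraries lay below the DMSO libraries of their gate without overlap. The ratio of PSMB10 to PSMB7 averaged 0.123 ± 0.00804 in GFP-low FX1, against 0.109 ± 0.0140 in GFP-low DMSO libraries, and 0.122 ± 0.00499 in GFP-high FX1, against 0.0562 ± 0.00211 in GFP-high DMSO libraries. The ratio of PSMB9 to PSMB6 averaged 0.192 ± 0.0181 in GFP-low FX1, against 0.199 ± 0.00603 in GFP-low DMSO libraries, and 0.211 ± 0.0152 in GFP-high FX1, against 0.217 ± 0.0126 in GFP-high DMSO libraries (SD, n = 3 each).

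In log2 units the PSMB8 to PSMB5 ratio changed with FX1 by -0.21 in GFP-low and -0.58 in GFP-high cells, and the PSMB10 to PSMB7 ratio by 0.18 and 1.12. The PSMB9 to PSMB6 ratio changed by -0.06 and -0.04, with overlapping groups. For the PSMB10 to PSMB7 ratio the treatments overlapped in GFP-low cells and not in GFP-high cells. The ratios were not corrected for GC content and length. After that correction PSMB10 changed by 0.19 in GFP-low cells, not called, and PSMB7 by 0.29, so the ratio's rise there was not kept. With 3 against 3 libraries the exact two-sided permutation test cannot give a p below 0.1, which it gave for both changes of the PSMB8 pair and for the GFP-high change of the PSMB10 pair. After Benjamini-Hochberg adjustment over the 12 ratio comparisons that exact p was 0.2, so none of the ratio changes passed 0.05 in this design.

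**Figure D5:**
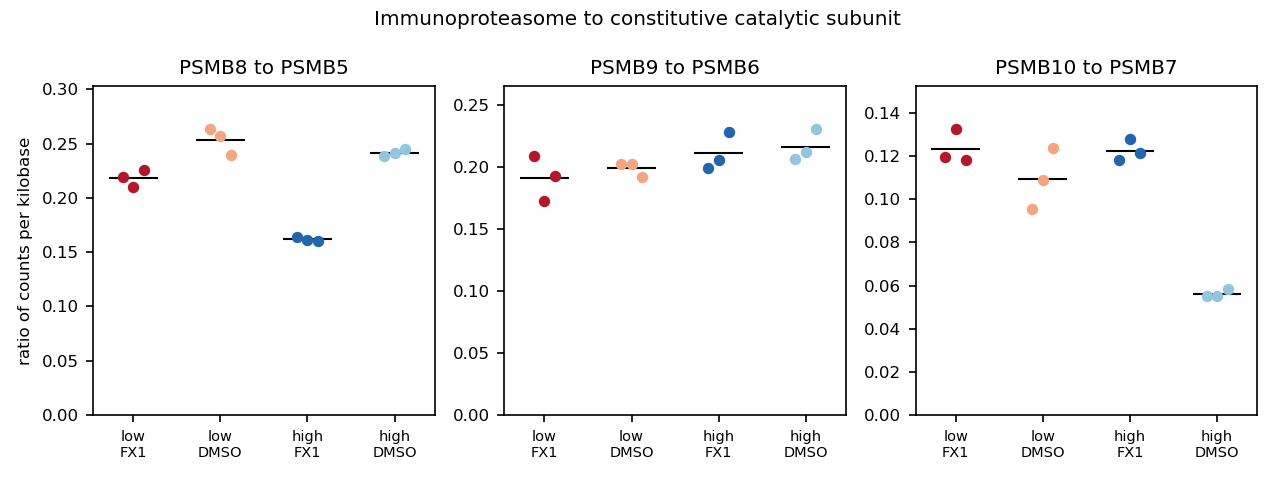
Ratio of each immunoproteasome subunit to the constitutive subunit it replaces, in counts per kilobase, by group. Each point is a library, lines are means of 3 libraries, and axes start at 0. PSMB8 to PSMB5 is lowest in GFP-high FX1 cells (0.162), PSMB9 to PSMB6 overlaps between treatments, and PSMB10 to PSMB7 is lowest in GFP-high DMSO cells (0.0562).

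Among the 6 ATPases of the cap, the ring that unfolds substrates and threads them into the core, FX1 raised 5 and lowered 1 in GFP-low cells, and raised 4 and lowered 1 in GFP-high cells. PSMC4 (hg38 chr19:39971165-39981764, plus strand) rose most of all subunits in GFP-low cells. It had 121, 120.4 and 119 CPM in GFP-low FX1, against 70.3, 67.8 and 66.2 in GFP-low DMSO libraries, and 111, 113 and 111 CPM in GFP-high FX1, against 56.0, 56.7 and 60.1 in GFP-high DMSO libraries. The 4 groups did not overlap, with GFP-low above GFP-high under each treatment. The FX1 change was 0.82 ± 0.030 in GFP-low cells (1.76-fold, adjusted p = 3.7e-75) and 0.95 ± 0.031 in GFP-high cells (1.93-fold, adjusted p = 1.5e-83, edgeR). The gate difference was 0.24 ± 0.034 with DMSO (adjusted p = 6.3e-11) and 0.11 ± 0.027 under FX1 (adjusted p = 0.00015, edgeR), and the values after GC and length correction were 0.12 with DMSO and -0.15 under FX1.

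The other ATPases changed less. PSMC5 rose by 0.53 ± 0.029 in GFP-low and 0.40 ± 0.029 in GFP-high cells, and PSMC2 and PSMC3 rose by 0.25 to 0.34. PSMC1 had 44.3, 43.1 and 44.1 CPM in GFP-low FX1, against 38.2, 41.5 and 42.5 in GFP-low DMSO libraries, and 51.6, 52.5 and 51.1 CPM in GFP-high FX1, against 52.3, 52.8 and 55.4 in GFP-high DMSO libraries. The GFP-low libraries lay below the GFP-high libraries throughout. The gate difference of PSMC1 was -0.39 ± 0.042 with DMSO (adjusted p = 4.4e-17) and -0.24 ± 0.039 under FX1 (adjusted p = 2.1e-08, edgeR). Because 76.1% of its exon bases lie opposite NRDE2, its count is uncertain. PSMC6 fell by -0.12 ± 0.029 in GFP-low and -0.06 ± 0.027 in GFP-high cells, and both values turned positive (0.15 and 0.07) after GC and length correction.

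Of the 11 non-ATPases of the cap, FX1 raised 7 and lowered 3 in GFP-low cells, and raised 8 and lowered 2 in GFP-high cells. The ones that rose most were PSMD3, a lid subunit, by 0.54 ± 0.023 in GFP-low and 0.56 ± 0.024 in GFP-high cells, and PSMD4, a ubiquitin receptor, by 0.46 ± 0.030 and 0.39 ± 0.031. The scaffold subunits PSMD2 and PSMD1 rose by 0.33 ± 0.018 and 0.18 ± 0.020 in GFP-low cells. The deubiquitinase PSMD14 and its partner PSMD7 fell, PSMD14 by -0.18 ± 0.027 in GFP-low and -0.06 ± 0.026 in GFP-high cells, and PSMD7 by -0.12 ± 0.028 and -0.20 ± 0.027. In GFP-low cells these falls turned to 0.19 for PSMD14 and 0.02 for PSMD7 after GC and length correction.

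PSMD12, another lid subunit, had the largest gate difference under FX1 before GC and length correction. It had 107, 111 and 106 CPM in GFP-low FX1, against 112, 117 and 118 in GFP-low DMSO libraries, and 170.1, 172 and 171 CPM in GFP-high FX1, against 154, 152 and 159 in GFP-high DMSO libraries. GFP-low libraries lay below GFP-high libraries, with the lowest values under FX1 in 1 gate and the highest under FX1 in the other. The difference between gates was -0.67 ± 0.024 under FX1 (adjusted p = 5e-76) and -0.42 ± 0.025 with DMSO (adjusted p = 4.4e-41, edgeR). After the correction the difference under FX1 was -0.41, and those of PSMG2 (-0.47), PSMG1 (-0.43) and PSMB10 (-0.43) were larger in size. FX1 changed PSMD12 by -0.10 ± 0.025 in GFP-low cells, a value that turned to 0.15 after GC and length correction, and by 0.14 ± 0.023 in GFP-high cells. The difference of these changes was -0.25 ± 0.034 (adjusted p = 1.7e-10, edgeR) and -0.08, not called, after that correction.

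The 3 assembly chaperones of the cap, which escort the ATPase ring before it joins the core, all rose with FX1 in GFP-high cells, by 0.14 to 0.33. In GFP-low cells only PSMD10 was called, and it fell, whereas after GC and length correction PSMD10 was not called and PSMD5 was called higher (0.24, against 0.06 before). PSMD10 had 30.7, 28.997 and 26.3 CPM in GFP-low FX1, against 35.6, 35.0 and 31.3 in GFP-low DMSO libraries, and 37.6, 41.6 and 39.7 CPM in GFP-high FX1, against 34.6, 37.4 and 35.5 in GFP-high DMSO libraries. The GFP-low FX1 libraries were lowest and the GFP-high FX1 libraries highest. Its FX1 change was -0.23 ± 0.050 in GFP-low (adjusted p = 1.3e-05) and 0.14 ± 0.047 in GFP-high cells (adjusted p = 0.0068, edgeR), of which the first was 0.04 and not called and the second 0.36 after GC and length correction, and the second 0.11 and not called without replicate 2 of GFP-high FX1. The difference of -0.37 ± 0.069 (adjusted p = 1.9e-06, edgeR) and the gate difference of -0.45 ± 0.048 under FX1 (adjusted p = 3.3e-17, edgeR) were still called after the correction, at -0.33 and -0.35.

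PSMD9 had 15.1, 14.8 and 14.9 CPM in GFP-low FX1, against 12.6, 13.4 and 15.3 in GFP-low DMSO libraries, and 13.5, 13.3 and 13.4 CPM in GFP-high FX1, against 10.4, 10.6 and 11.1 in GFP-high DMSO libraries. The treatments overlapped in GFP-low cells and not in GFP-high cells. It was higher in GFP-low than in GFP-high cells by 0.36 ± 0.081 with DMSO (adjusted p = 5.9e-05, edgeR), and its FX1 rise of 0.33 ± 0.079 in GFP-high cells was called (adjusted p = 0.00010, edgeR). Its difference of FX1 changes was called only after GC and length correction (-0.29).

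The 4 core assembly chaperones went against the direction of most subunits. They work as 2 pairs, PSMG1 with PSMG2 and PSMG3 with PSMG4, that help to build the alpha ring and are not part of the finished core. All 4 fell with FX1 in GFP-high cells (34.6% of all genes fell), and in GFP-low cells 2 fell (34.3%), 1 rose (33.7%) and 1 was not called. After GC and length correction PSMG1 was not called in either gate, at -0.02 in GFP-low and -0.03 in GFP-high cells. Their summed level was 148 ± 3.74 CPM in GFP-low FX1, against 158 ± 3.11 in GFP-low DMSO libraries, and 158 ± 2.32 CPM in GFP-high FX1, against 185 ± 1.36 in GFP-high DMSO libraries (SD, n = 3 each).

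PSMG2 had 17.2, 17.2 and 18.6 CPM in GFP-low FX1, against 23.9, 25.3 and 27.1 in GFP-low DMSO libraries, and 21.5, 21.0 and 21.4 CPM in GFP-high FX1, against 24.8, 26.8 and 26.0 in GFP-high DMSO libraries. The GFP-low FX1 libraries stood below all the others. The FX1 change was -0.53 ± 0.059 in GFP-low (adjusted p = 4.5e-16) and -0.28 ± 0.058 in GFP-high cells (adjusted p = 4.4e-06, edgeR), and the difference of -0.25 ± 0.083 (adjusted p = 0.012, edgeR) was no longer called without replicate 1 of GFP-low FX1 (-0.22) or replicate 3 of GFP-low DMSO (-0.21). Its partner PSMG1 had 62.9, 62.2 and 65.6 CPM in GFP-low FX1, against 71.0, 68.2 and 66.5 in GFP-low DMSO libraries, and 83.04, 84.4 and 82.98 CPM in GFP-high FX1, against 94.9, 94.0 and 94.3 in GFP-high DMSO libraries. The GFP-low libraries lay below the GFP-high libraries and FX1 below DMSO in each gate. PSMG1 was lower in GFP-low cells by -0.46 ± 0.032 with DMSO (adjusted p = 1.8e-32) and by -0.40 ± 0.032 under FX1 (adjusted p = 3.5e-27, edgeR).

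In the second pair both genes fell with FX1 in GFP-high cells. PSMG4 had 26.1, 25.9 and 26.8 CPM in GFP-low FX1, against 25.3, 22.2 and 22.3 in GFP-low DMSO libraries, and 18.0, 19.7 and 18.2 CPM in GFP-high FX1, against 24.1, 24.2 and 23.5 in GFP-high DMSO libraries. PSMG3 had 41.3, 39.1 and 40.8 CPM in GFP-low FX1, against 40.8, 41.5 and 38.9 in GFP-low DMSO libraries, and 35.1, 36.0 and 34.0 CPM in GFP-high FX1, against 40.8, 41.4 and 39.98 in GFP-high DMSO libraries. For both genes the GFP-high FX1 libraries were the lowest, and the 2 DMSO groups overlapped. PSMG4 changed with FX1 by 0.18 ± 0.056 in GFP-low (adjusted p = 0.0037) and -0.37 ± 0.060 in GFP-high cells (adjusted p = 1e-08, edgeR), the first of which was 0.06 and not called after GC and length correction. The difference of 0.54 ± 0.082 (adjusted p = 3.7e-09, edgeR) was the largest positive one among the 46 genes. PSMG3 changed by 0.00 ± 0.044 in GFP-low cells (adjusted p = 0.99), where it was -0.16 and called lower after GC and length correction, and by -0.22 ± 0.045 in GFP-high cells (adjusted p = 4.4e-06, edgeR), a difference of 0.22 ± 0.063 (adjusted p = 0.0028, edgeR) that was 0.04 and not called after that correction and 0.16 and not called without replicate 2 of GFP-high DMSO. Under FX1 PSMG4 and PSMG3 were higher in GFP-low than in GFP-high cells, by 0.50 ± 0.057 and 0.21 ± 0.044, and the value for PSMG3 turned to -0.15 after the correction.

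Among the activators and the inhibitor, which dock on the ends of the core in place of the cap, FX1 raised 4 of 5 in each gate and lowered PSME1. PSME1 and PSME2 code for the partners of the interferon-inducible activator ring and lie 4394 bases apart on chromosome 14. PSME1 (hg38 chr14:24136163-24138967, plus strand) had 106, 108 and 107 CPM in GFP-low FX1, against 118, 117 and 120.2 in GFP-low DMSO libraries, and 119.8, 118 and 123 CPM in GFP-high FX1, against 138, 134 and 133 in GFP-high DMSO libraries. PSME2 (hg38 chr14:24143362-24147570, minus strand) had 102, 103 and 98.2 CPM in GFP-low FX1, against 84.1, 85.9 and 84.7 in GFP-low DMSO libraries, and 103, 104 and 107 CPM in GFP-high FX1, against 86.0, 84.8 and 82.3 in GFP-high DMSO libraries. In each gate the FX1 libraries were lower for PSME1 and higher for PSME2, with no overlap.

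PSME1 changed by -0.15 ± 0.026 in GFP-low (adjusted p = 5.4e-08) and -0.17 ± 0.025 in GFP-high cells (adjusted p = 9.8e-10, edgeR), and PSME2 by 0.25 ± 0.029 (adjusted p = 1.7e-15) and 0.31 ± 0.029 (adjusted p = 5.1e-21, edgeR). The differences of these changes between gates were called only after GC and length correction, at -0.11 for PSME1 and -0.15 for PSME2. The fall of PSME1 in GFP-high cells was then -0.03 and not called. The promoter of each gene holds the same 9 letters, as printed above. PSME2 has 6 pseudogene records whose counts sum to 3.84% of its own, the highest share among the 46 genes.

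PSME3, which codes for the nuclear activator, rose most in this group and differed between the gates. It averaged 218 ± 2.47 CPM in GFP-low FX1, against 159 ± 3.94 in GFP-low DMSO libraries, and 272 ± 0.829 CPM in GFP-high FX1, against 172 ± 2.46 in GFP-high DMSO libraries (SD, n = 3 each). The changes were 0.45 ± 0.020 and 0.66 ± 0.020, with a difference of -0.21 ± 0.028 (adjusted p = 3.2e-11, edgeR). The inhibitor PSMF1 followed, with 0.41 ± 0.032 and 0.63 ± 0.032 and a difference of -0.22 ± 0.045, and so did the large activator PSME4, with 0.16 ± 0.017 and 0.30 ± 0.017 and a difference of -0.14 ± 0.024.

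Other genes of the pathway were read from lists that are not part of the 48. Of 18 further proteasome-bound proteins and assembly factors, FX1 raised 8 and lowered 6 in GFP-low cells and raised 11 and lowered 5 in GFP-high cells. For this and the lists that follow, the shares over all genes tested were 33.7% higher and 34.3% lower in GFP-low cells and 33.8% higher and 34.6% lower in GFP-high cells, and the lists' counts are not set apart from them by a test. ADRM1, a ubiquitin receptor of the cap, rose by 0.87 ± 0.036 and 0.83 ± 0.039, and UCHL5, the deubiquitinase bound to it, fell by -0.61 ± 0.024 and -0.29 ± 0.022. POMP, which completes core assembly and has a name outside the PSM scheme, changed by -0.08 ± 0.035 in GFP-low and 0.19 ± 0.032 in GFP-high cells, and was lower in GFP-low cells by -0.64 ± 0.032 under FX1 and -0.37 ± 0.034 with DMSO. Of 6 ubiquitin and ubiquitin-activation genes, 3 rose and 2 fell in GFP-low and 4 rose and 2 fell in GFP-high cells, with the polyubiquitin gene UBB at 0.74 ± 0.061 and 0.61 ± 0.062 and the activating enzyme UBA6 at -0.65 ± 0.023 and -0.51 ± 0.022.

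Of 13 regulators of proteasome transcription, 7 rose and 4 fell with FX1 in GFP-low and 7 rose and 5 fell in GFP-high cells. NFE2L1 changed little, by 0.02 ± 0.019 (not called) in GFP-low and -0.10 ± 0.019 in GFP-high cells, and NFE2L2 by 0.09 ± 0.032 and 0.17 ± 0.031. MAFG, a small MAF protein that pairs with both, rose by 1.00 ± 0.046 and 0.85 ± 0.048, whereas its relative MAFF fell by -1.17 ± 0.174 and -1.21 ± 0.162. Of 13 interferon regulators and peptide transport genes, 8 rose and 1 fell in GFP-low and 7 rose and 3 fell in GFP-high cells. The largest changes were those of the peptide transporter genes, TAP1 at 0.79 ± 0.036 and 0.72 ± 0.038 and TAP2 at 0.76 ± 0.027 and 0.88 ± 0.026. IRF1 changed by 0.07 ± 0.032 and, not called, 0.00 ± 0.033, and NLRC5, which activates MHC class I and immunoproteasome genes, by 0.10 ± 0.039 and -0.12 ± 0.040.

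Across the 46 genes the changes went with the GC content of their transcripts. Spearman's rho of change with GC content, given as a description over genes that share libraries, was 0.51 for FX1 in GFP-low cells, 0.32 for FX1 in GFP-high cells, 0.65 for the gates under FX1, 0.56 for the gates with DMSO and 0.19 for the difference of the FX1 changes. After the correction the median log2 change of the 46 genes was 0.23 in GFP-low and 0.35 in GFP-high cells with FX1, against 0.05 and 0.06 for all genes, and the gate medians were -0.16 under FX1 and -0.07 with DMSO. The part of GC content in these changes was not tested beyond this correction.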

How the data were processed

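The libraries were made from total RNA (RNeasy Plus Micro) with KAPA RNA HyperPrep and RiboErase, per the labels' protocols. Raw counts per gene were deposited by the authors, per the file headers, and the submitters' processing notes name FastQC, STAR, featureCounts from Subread, R 4.2.1 and hg38. Aligner and counter versions, the annotation release and the strand setting are not given in the sources used here. The members and gene lists were chosen with earlier results of these data known.

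Of 60710 lines, 3 from a broken record were left out. Symbols were found for 60462 of 60707 genes, and promoters and their sequences come from RefSeq (GRCh38.p14). Counts passing filterByExpr were scaled by TMM and fitted in edgeR 4.0.16 (R 4.3.3) with 1 term per group over all 12 libraries, by the robust quasi-likelihood test, with Benjamini-Hochberg adjustment over 17859 genes and a threshold of 0.05. The script was tested on simulated data. Subunit ratios were compared by exact permutation tests. Totals of 20454028 to 42556661 counts limit precision by counting error only in part, since library spread exceeded it.

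Values per library are given for PSMB5 to PSMB10, PSME1, PSME2 and the 3 called members with the largest rise and fall in each comparison, and list genes by the 2 largest called changes plus set regulators, 1 of which is not reported here. Alternatives were DESeq2 1.42.0, other filters, scalings and fold floors, a replicate block, GC and length correction (mgcv 1.9.3), pseudogene counts added, only the groups compared, and each library left out. Replicate numbers did not pair samples: correlations of same-numbered deviations were -0.0248 to 0.021.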

Additional observations from a re-analysis of the deposited data

Results flagged for a closer look

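The FX1 change differed between the gates for 23 of the 46 tested proteasome genes, by the test of the difference itself (GFP-low minus GFP-high, log2, edgeR's quasi-likelihood test with Benjamini-Hochberg adjustment). The difference was negative for PSMB10 (-0.94), a catalytic subunit of the immunoproteasome, and for the cap chaperones PSMD10 (-0.37) and PSMD5 (-0.23). In the core it was negative for PSMA3 (-0.27), PSMA1 (-0.22), PSMA7 (-0.21), PSMB3 (-0.25) and PSMB2 (-0.12), and for the chaperone PSMG2 (-0.25). Among cap subunits it was negative for PSMD12 (-0.25), PSMD8 (-0.15), PSMD11 (-0.15), PSMC4 (-0.13) and PSMD14 (-0.12), and among the activators and the inhibitor for PSMF1 (-0.22), PSME3 (-0.21) and PSME4 (-0.14).

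The difference was positive for the core chaperones PSMG4 (0.54) and PSMG3 (0.22), for the immunoproteasome subunit PSMB8 (0.28), and for the cap subunits PSMC1 (0.16), PSMC5 (0.13) and PSMD2 (0.071). The 2 immunoproteasome subunits PSMB8 and PSMB10 therefore differed between the gates in opposite directions, and PSMB9 at 0.05 was not called. Of these values, those of PSMD14 and PSMD2 changed sign and those of PSMA3, PSMD12, PSMG3, PSMC1 and PSMC5 were no longer called after GC and length correction. PSMC4 was not called without replicate 1 of GFP-low DMSO (-0.11).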

How the results depend on the processing

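Counts of members called are given as higher and lower, in the order FX1 in GFP-low, FX1 in GFP-high, gates under FX1, gates with DMSO, and the difference. The shares over all genes under these settings are not given here. These counts therefore have no background beside them and do not show whether members lost calls faster or slower than all genes. A required change of 1.2-fold gave 14 and 2, 17 and 2, 2 and 7, 1 and 4, and 1 and 1; one of 1.5-fold gave 1 and 0, 4 and 0, 0 and 1, 1 and 0, and 0 and 0. GC and length correction gave 4 lower in GFP-low and 6 lower in GFP-high cells, also with the replicate block. For the difference, the count of positive calls was 3 with DESeq2, 3 with no low-count filter, 10 with at least 50 counts in 3 libraries and 3 with mitochondrial and abundant genes left out of scaling. The replicate block alone gave 29 and 9, 31 and 10, 10 and 25, 10 and 19, and 6 and 17. Fits on the compared groups alone were not possible for the difference. Without PSMB10 and PSMC1, a choice made after seeing the data, the counts were 28 and 9, 30 and 11, 9 and 24, 9 and 18, and 5 and 16. Leaving out 1 library in turn gave 25 to 31 and 9 to 12, 31 to 31 and 8 to 11, 6 to 10 and 23 to 30, 9 to 11 and 17 to 19, and 2 to 6 and 17 to 23. The same ranges of log2 ratios, in the order of the first 4 comparisons, were -0.25 to -0.19, -0.59 to -0.57, 0.41 to 0.46 and 0.04 to 0.11 for PSMB8 to PSMB5, -0.12 to 0.012, -0.10 to 0.0086, -0.21 to -0.07 and -0.15 to -0.07 for PSMB9 to PSMB6, and 0.09 to 0.27, 1.09 to 1.16, -0.044 to 0.041 and 0.86 to 1.05 for PSMB10 to PSMB7. GC and length correction reversed the sign for FX1 in GFP-low cells of PSMA4 (0.11), PSMC6 (0.15), PSMD10 (0.037, with the block 0.036), PSMD12 (0.15), PSMD14 (0.19) and PSMD7 (0.023, with the block 0.022), and in GFP-high cells of PSMA4 (0.052, with the block 0.053), PSMC6 (0.075, with the block 0.074) and PSMD13 (0.11, with the block 0.12). It did so between gates under FX1 for PSMA5 (0.12), PSMB1 (0.022, with the block 0.024), PSMB3 (-0.19), PSMB5 (-0.17, with the block -0.16), PSMB6 (-0.17), PSMC2 (0.026, with the block 0.024), PSMC4 (-0.15), PSMD14 (0.11, with the block 0.12), PSMD2 (-0.18), PSMD3 (-0.061, with the block -0.062), PSMD4 (-0.14), PSMD6 (0.069, with the block 0.072) and PSMG3 (-0.16), with DMSO for PSMD4 (-0.083, with the block -0.082), and in the difference for PSMD14 (0.27), PSMD2 (-0.048, with the block -0.047) and PSME1 (-0.11). The cause was not tested.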
